A study of Mus musculus with 58 samples.

Results

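The Ms4a genes examined here were the 7 named Ms4a4a, Ms4a4b, Ms4a4c, Ms4a6b, Ms4a6c, Ms4a6d and Ms4a7, taken by symbol from the 24940 genes listed in the raw count table of an age series of mouse microglia. They were followed through all 58 libraries of the study, in 13 groups. Every library was made from polyA RNA of forebrain cells of C57BL/6 mice, sorted as single live cells positive for CD11b and CX3CR1 and low for CD45, a gate for microglia. The age series compared wild-type (WT) mice with mice labelled SgshKO. At 3 weeks there were 3 WT and 4 SgshKO libraries, at 4 months 2 and 2, and at 8 months 4 and 7. Sgsh encodes the lysosomal sulfamidase that helps degrade heparan sulfate, and its loss in people causes Sanfilippo syndrome type A, a storage disease of the brain. In the antisense oligonucleotide (ASO) experiments a single dose was given into the cerebral ventricles and microglia were collected 14 days later. WT mice received saline (labelled PBS), the ASO labelled ntc, which serves as control, or one that targets Mitf, Tfeb or Tfe3, with 4 libraries of each kind. SgshKO mice received the ntc ASO or ASOs against Mitf and Tfe3 together (labelled combo), with 8 libraries each. Mitf, Tfeb and Tfe3 are related transcription factors of lysosomal and autophagy genes. The kind of Sgsh allele and the ages in the ASO experiments are not given in the sources used here. Nothing in the labels says that libraries of a group came from separate animals, so the p-values below measure the spread between these libraries, which may be partly technical.

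Ms4a genes encode small proteins that cross the membrane several times and sit at the surface or in endosomes of immune cells, where some associate with other receptors. In the mouse brain, Ms4a6b, Ms4a6c and Ms4a6d are known as genes of microglia, Ms4a7 is a common marker of the macrophages of the brain's borders and of cells that entered from blood, and Ms4a4a is read in border macrophages as well. Ms4a4b is best known from T cells, and Ms4a4c from monocytes and interferon-treated myeloid cells. In people the gene cluster has been linked to the soluble form of the microglial receptor TREM2.

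All 7 genes lie within one stretch of chromosome 19 (mm10). Ms4a7 (11321039 to 11336146, minus strand) and Ms4a4a (11375488 to 11392915, plus strand) are at one end. Ms4a4c, Ms4a4b, Ms4a6c (11469368 to 11482196, plus strand) and Ms4a6b (11518559 to 11530403, plus strand) follow, and Ms4a6d (11586606 to 11604804, minus strand) is at the other end. The 250 bases before the start of 4 genes are printed because these 4 went different ways in the data below: both border macrophage genes, and the microglial genes Ms4a6b and Ms4a6c, which have near-identical stretches. The sequences are RefSeq's for GRCm38.p6 and read 5′ to 3′ on the strand of the gene. The positions are chr19:11336147-11336396 (minus strand) for Ms4a7, chr19:11375238-11375487 (plus strand) for Ms4a4a, chr19:11518309-11518558 (plus strand) for Ms4a6b and chr19:11469118-11469367 (plus strand) for Ms4a6c. Capitals mark every match to a motif listed in the next paragraph.
Ms4a7: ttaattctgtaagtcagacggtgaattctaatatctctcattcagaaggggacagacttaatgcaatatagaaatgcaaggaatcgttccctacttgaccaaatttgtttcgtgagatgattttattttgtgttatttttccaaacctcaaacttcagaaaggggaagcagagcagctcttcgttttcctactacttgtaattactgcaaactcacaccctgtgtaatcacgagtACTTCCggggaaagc
Ms4a4a: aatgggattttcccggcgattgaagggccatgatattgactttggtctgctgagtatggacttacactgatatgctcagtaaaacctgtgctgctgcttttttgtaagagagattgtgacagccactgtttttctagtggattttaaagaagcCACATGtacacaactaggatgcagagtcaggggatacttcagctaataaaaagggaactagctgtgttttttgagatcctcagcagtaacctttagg
Ms4a6b: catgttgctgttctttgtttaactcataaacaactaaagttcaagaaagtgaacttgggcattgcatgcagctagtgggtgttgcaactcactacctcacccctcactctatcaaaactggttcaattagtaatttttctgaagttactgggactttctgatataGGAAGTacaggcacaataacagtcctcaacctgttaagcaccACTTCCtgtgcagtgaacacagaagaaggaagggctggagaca
Ms4a6c: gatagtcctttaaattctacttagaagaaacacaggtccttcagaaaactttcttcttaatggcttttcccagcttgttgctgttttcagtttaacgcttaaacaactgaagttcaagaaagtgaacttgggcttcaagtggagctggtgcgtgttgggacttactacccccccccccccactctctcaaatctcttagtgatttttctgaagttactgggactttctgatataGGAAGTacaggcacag

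RefSeq promoter sequences matched 6 of the 7 genes by symbol. On both strands, 5 short motifs were searched. CACGTG, the core of the site bound by Mitf, Tfeb and Tfe3, was in none of the 6 windows and in 6.02% of the same windows of 32851 genes. CATGTG, the other form these factors are known to bind, was found once, in Ms4a4a on the minus strand 97 to 92 bases before the start, and in 12.2% of all windows. GGAAGT, the core recognised by PU.1 and other ETS factors of myeloid cells, was in 5 of the 6 windows and in 19.7% of all. It lay 15 to 10 bases before the start in Ms4a7 (minus strand), 16 to 11 bases before it in Ms4a6c, and at 85 to 80 bases and, on the minus strand, 43 to 38 bases in Ms4a6b. TGANTCA, read by AP-1 factors (6.75% of all), and the core of the interferon-stimulated response element (GAAA, any pair of bases, GAAA; 2.98% of all) were in none of the 6. The motifs do not overlap one another where found, and a match only says that the letters are present. Ms4a6b and Ms4a6c shared an unbroken run of 48 bases, 118 to 71 bases before the start in Ms4a6b and 49 to 2 bases in Ms4a6c. The next longest run, 20 bases, was shared by Ms4a4b and Ms4a4c, and no other pair shared more than 9. The windows of Ms4a4b and Ms4a4c were identical at 80.1% of aligned bases. The 48-base run holds the GGAAGT of Ms4a6c and the one at 85 to 80 bases in Ms4a6b. The 5 windows with GGAAGT are therefore not independent.

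The same pairs were the closest in coding sequence, read from the longest reading frame of each gene's GENCODE transcripts: Ms4a4b and Ms4a4c were identical at 91.8% of aligned bases, Ms4a6b and Ms4a6c at 86.3%, and Ms4a6b and Ms4a6d at 81.8%. Ms4a7 was between 64.0% and 69.0% identical to the other members. Of all stretches of 50 bases in a gene's transcripts, 5.66% in Ms4a6b, 6.08% in Ms4a6c, 2.69% in Ms4a6d, 2.85% in Ms4a4b and 7.67% in Ms4a4c also occur in another member, and none in Ms4a7 or Ms4a4a. How such reads were assigned is not given in the sources used here, so the split of counts within the Ms4a6 genes and between Ms4a4b and Ms4a4c carries that uncertainty.

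Total counts per library ran from 8191508 to 27106584 for the age series, from 14372015 to 30378870 for WT with ASOs and from 12517838 to 30431437 for SgshKO with ASOs. Intervals on ratios of counts below cover counting error only. Age series libraries correlated with the rest of their own group at a mean r of 0.936 to 0.981. At 8 months the lowest of each genotype were WT replicate 4 (0.966) and SgshKO replicate 2 (0.952). Results that rest on them are given without them, or with the range over fits that leave out 1 library. Sgsh RNA was still counted in SgshKO libraries. As CPM, the usual scaling of a gene's counts to its library's total, it was 23.7 in WT and 19.0 in SgshKO at 3 weeks (adjusted p = 0.434, edgeR) and 44.4 and 26.6 at 8 months (log2 fold change -0.74, adjusted p = 0.000583), so it does not check the labels where the altered part of the gene is unknown. The ASO targets fell: Mitf from 43.7 to 1.58 CPM, Tfeb from 54.9 to 5.80 and Tfe3 from 198 to 38.1 in WT, and Mitf from 72.4 to 15.3 and Tfe3 from 170.4 to 80.4 with the combo. Homeostatic microglial markers were abundant in every age series library, at a summed 33818 CPM or more, and differed by genotype as given below. The 3 Ms4a6 genes were the members listed in both ASO tables.

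In the age series, 6 of the 7 genes had enough counts to be tested with edgeR's quasi-likelihood test, with p-values adjusted over 14309 genes, and Ms4a4b did not. At 3 weeks none of the 6 passed the threshold of 0.05 (1 of 6 at an unadjusted p under 0.05, none with DESeq2), where 9.03% of all tested genes passed. At 4 months 2 of 6 passed, 1 higher and 1 lower in SgshKO, against 19.5% of all genes, 10.3% higher and 9.26% lower. At 8 months 3 of 6 passed, 2 higher and 1 lower, against 40.5% of all genes, 21.6% higher and 18.9% lower. The median log2 fold change of the 6 at 8 months was 0.45, between -0.07 for Ms4a6c and 0.97 for Ms4a4c, beside 0.02 over all genes. Ms4a4a had enough counts to be tested only through the SgshKO libraries of 8 months. It counts among the 3 that passed and in this median, so neither describes the family apart from that filter. The members that passed were Ms4a6b, lower at 4 and 8 months, Ms4a7, higher at both, and Ms4a4a, higher at 8 months.

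**Figure D1:**
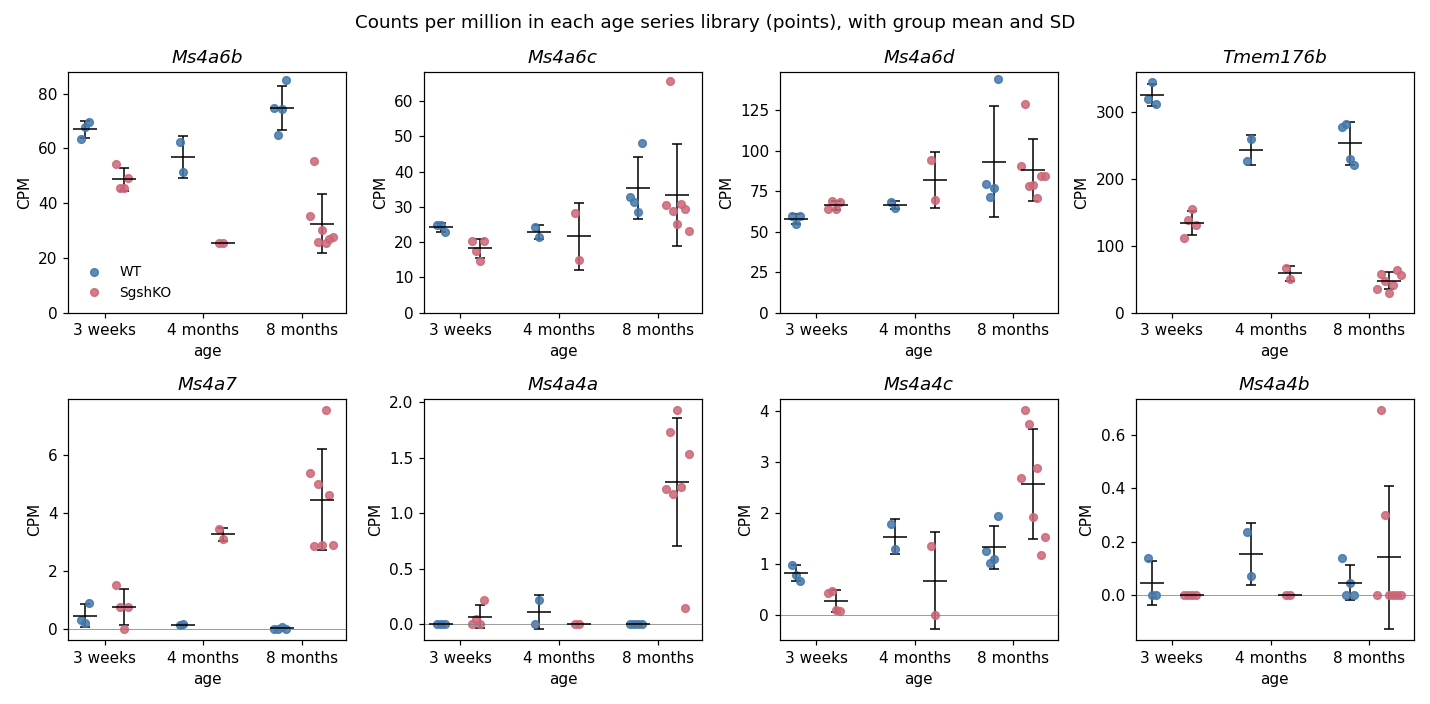
Level in CPM (y axis) of the 7 Ms4a genes and of their relative Tmem176b in each of the 22 age series libraries, by age (x axis) and genotype (WT blue, SgshKO red), with the group mean and SD as lines. Ms4a6b points of SgshKO lie below those of WT at each age, Ms4a7 is at most 1.52 CPM outside SgshKO at 4 and 8 months, and 1 library of each genotype stands high for Ms4a6c and Ms4a6d at 8 months.

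Among the microglial genes, Ms4a6b was lower in SgshKO. Its level in WT was 63.3, 67.8 and 69.6 CPM at 3 weeks, 62.2 and 51.3 at 4 months, and 74.6, 65.0, 74.3 and 84.8 at 8 months. SgshKO libraries held 54.2, 45.6, 45.7 and 49.1 CPM at 3 weeks and 25.6 and 25.4 at 4 months. At 8 months the lowest of 7 was 25.6, the median 27.6 and the highest, replicate 2, 55.6 CPM. The genotypes did not overlap at any of the 3 ages, a pattern found in 22.5%, 58.1% and 25.2% of tested genes at 3 weeks, 4 months and 8 months. Means were 66.9 ± 3.28 CPM (SD, n = 3) against 48.7 ± 4.03 (n = 4) at 3 weeks, and 74.7 ± 8.09 (n = 4) against 32.5 ± 10.7 (n = 7) at 8 months.

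Ms4a6b did not pass at 3 weeks (log2 fold change -0.46 ± 0.18 SE, adjusted p = 0.143, edgeR), fell at 4 months (-1.15 ± 0.26, adjusted p = 0.00201) and fell at 8 months (-1.20 ± 0.15, adjusted p = 4.62e-07), a level 2.30-fold lower. The call at 8 months held in all 20 alternatives run, with adjusted p from 3.04e-13 to 9.03e-05. Between 3 weeks and 8 months Ms4a6b fell within SgshKO (-0.59 ± 0.15, adjusted p = 0.00446), and its difference within WT was 0.16 (adjusted p = 0.708). The change of the genotype difference between those ages was -0.74 ± 0.24 and missed the threshold (adjusted p = 0.0519, edgeR). Over 27 alternatives that adjusted p ran from 0.000186 to 0.187, and without WT replicate 4 and SgshKO replicate 2 it was 0.000481. The fall of Ms4a6b went with lower homeostatic microglial markers, whose part in it was not tested. Among all tested genes 9.26% fell at 4 months and 18.9% at 8 months. Of 12 homeostatic markers 3 fell in SgshKO at 3 weeks, 10 at 4 months and 10 at 8 months, where 1 rose. Their summed level was 62744 to 64604 CPM in WT and 55890 to 60767 in SgshKO at 3 weeks, 50787 to 56939 against 33818 to 39310 at 4 months, and 46637 to 56275 against 36926 to 41273 at 8 months, with no overlap at any age. In bulk libraries, fewer cells of a type and less RNA per cell cannot be told apart.

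Ms4a6c showed no genotype difference that passed. Its WT levels were 24.9, 24.8 and 22.8 CPM at 3 weeks, and 32.9, 31.4, 28.6 and 48.1 at 8 months. In SgshKO it was 20.4, 17.5, 14.7 and 20.3 at 3 weeks, and at 8 months 23.2 at lowest, 29.5 at the median and 65.6 at highest. At 4 months WT libraries held 24.2 and 21.4 CPM and SgshKO libraries 28.4 and 15.0 (log2 fold change -0.09, adjusted p = 0.902). All 4 SgshKO libraries at 3 weeks were below the WT ones, with a log2 fold change of -0.40 (adjusted p = 0.480). At that age 22.5% of all tested genes lay apart in either direction. The 8-month groups overlapped, at -0.07 ± 0.22 (adjusted p = 0.820). With 1 library left out at a time, this value ran from -0.35 to 0.0785 (lowest adjusted p = 0.0646, edgeR). Within SgshKO, Ms4a6c rose from 3 weeks to 8 months by 0.87 ± 0.23 on the log2 scale (adjusted p = 0.00507). With 1 library left out at a time, that rise ran from 0.60 to 0.93 (highest adjusted p = 0.0233, edgeR). Within WT the difference was 0.54 (adjusted p = 0.256).

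Ms4a6d was also without a genotype difference that passed. At 3 weeks it was 59.5, 54.5 and 59.9 CPM in WT and 63.9, 69.2, 63.9 and 68.2 in SgshKO, with the SgshKO libraries all higher (log2 fold change 0.19, adjusted p = 0.686). At 4 months the SgshKO libraries, at 93.9 and 69.7 CPM, were above the WT ones, at 68.0 and 64.8 (0.30, adjusted p = 0.459). Groups lay apart in this way, in either direction, for 22.5% of all tested genes at 3 weeks and 58.1% at 4 months. At 8 months WT libraries held 79.5, 71.5, 76.7 and 144.1 CPM, and SgshKO libraries 70.8 at lowest, 84.1 at the median and 128.5 at highest. These groups overlapped, with a log2 fold change of -0.08 ± 0.16 (adjusted p = 0.735) that was 0.10 without WT replicate 4 and SgshKO replicate 2, the highest library of each group. Within WT, Ms4a6d rose from 3 weeks to 8 months by 0.68 ± 0.19 (adjusted p = 0.0309, edgeR), and without WT replicate 4 the value was 0.39 (adjusted p = 0.144). Leaving out any 1 of the 3 WT libraries of 3 weeks also ended that call, and its adjusted p ran from 0.00215 to 0.144 over 16 alternatives. Within SgshKO the difference over the same ages was 0.41 ± 0.16 (adjusted p = 0.0551).

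Levels of different genes were compared as TPM, the unit of abundance that the authors deposited, which allows for transcript length. In WT microglia at 3 weeks Ms4a6d (65.5 TPM) and Ms4a6b (61.4) had overlapping ranges, and Ms4a6c was lower (20.3). In SgshKO at 8 months Ms4a6d stood at 91.8 ± 22.3 TPM (SD, n = 7), above Ms4a6b at 27.6 ± 10 and Ms4a6c at 26.03 ± 12.3, which did not differ beyond their spread. Ms4a7 followed at 4.76 ± 1.89 TPM, then Ms4a4c at 2.13 ± 0.936 and Ms4a4a at 1.84 ± 0.839, whose spreads overlap, and Ms4a4b was last at 0.166. In WT at 8 months the order was Ms4a6d (107.3 ± 41.5 TPM, n = 4), Ms4a6b (69.8 ± 8.61), Ms4a6c (30.2 ± 8.00) and Ms4a4c (1.21), with Ms4a7 at 0.014.

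The balance among the 3 Ms4a6 genes differed by genotype. Ms4a6b made up 41.7% ± 1.77 (SD, n = 3) of their summed TPM in WT at 3 weeks and 33.1% ± 1.97 (n = 4) in SgshKO. At 4 months the shares were 35.5% ± 2.09 and 17.8% ± 3.55 (n = 2 each). At 8 months they were 34.6% ± 4.71 (n = 4, lowest 27.7%) and 18.8% ± 1.38 (n = 7, highest 20.3%). The genotypes did not overlap at any age, and the library with the lowest WT share at 8 months was replicate 4, which stood high in Ms4a6d. The Ms4a6d share was 50.8% ± 4.76 in WT and 63.8% ± 3.23 in SgshKO at 8 months, and the Ms4a6c share 14.6% and 17.4%. Both of these shares overlapped between genotypes, Ms4a6d narrowly, with a WT maximum of 57.9% and a SgshKO minimum of 57.8%. Summed TPM of the 3 genes was 207 ± 57.2 in WT and 145 ± 44.0 in SgshKO at 8 months, with overlapping ranges of 167 to 292 and 121 to 243.

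**Figure D2:**
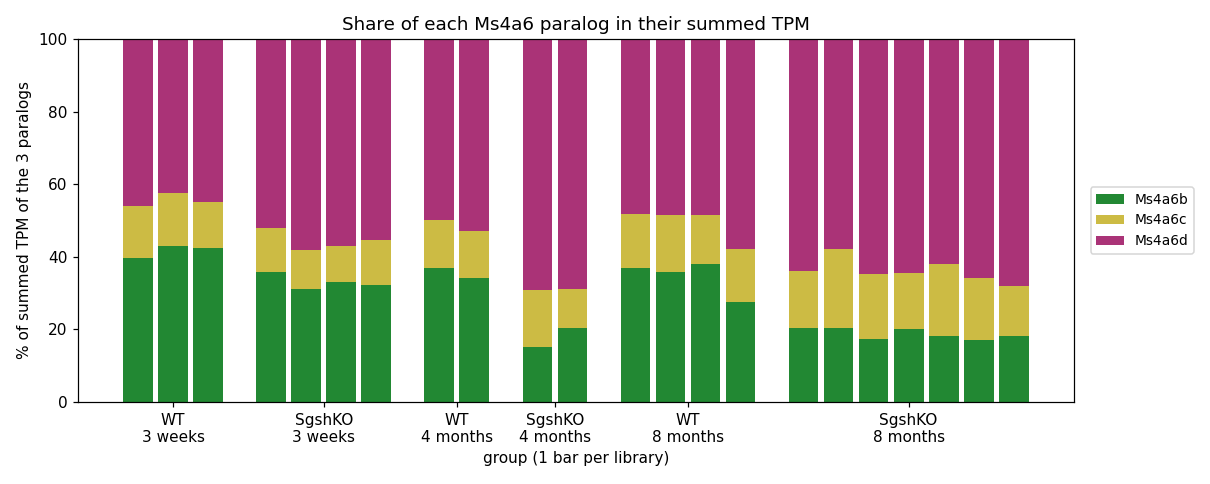
Share of the summed TPM of Ms4a6b, Ms4a6c and Ms4a6d held by each gene (y axis, percent), by age and genotype, in the 22 age series libraries. The Ms4a6b share in SgshKO at 8 months reaches at most 20.3%, and in WT it is at least 27.7%.

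The border macrophage genes went the other way. Ms4a7 was counted 4, 3 and 16 times in the WT libraries of 3 weeks (0.281, 0.181 and 0.894 CPM), 1 and 2 times at 4 months (0.118 and 0.143 CPM), and 0, 0, 1 and 0 times at 8 months. In SgshKO it was at 1.52, 0.761, 0 and 0.731 CPM at 3 weeks and at 3.42 and 3.10 CPM at 4 months. At 8 months the 7 SgshKO libraries held 2.84 CPM at lowest, 4.62 at the median and 7.55 at highest, from 32 to 146 counts. The groups overlapped at 3 weeks and not at 4 or 8 months, where 58.1% and 25.2% of all tested genes did not overlap.

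Pooled over libraries, the Ms4a7 level in SgshKO was 1.86 times that in WT at 3 weeks (95% counting interval 1.13 to 3.16), which did not pass across libraries (adjusted p = 0.643, edgeR). At 4 months the pooled ratio was 24.1 (7.89 to 120), and Ms4a7 rose (log2 fold change 4.53 ± 1.09, adjusted p = 0.00404). Without WT replicate 2 the 4-month difference lost its call (adjusted p = 0.0599, range over 11 alternatives 0.000613 to 0.0599). At 8 months the ratio was 318 (56.9 to 12590), a value that rests on the single WT read, and Ms4a7 rose in all 20 alternatives (adjusted p = 2.31e-07, range 2.76e-11 to 1.22e-05). The WT level at 8 months lies at the limit of this depth.

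The Ms4a7 genotype difference was larger at 8 months than at 3 weeks by 6.88 ± 1.18 on the log2 scale (adjusted p = 0.000379, edgeR), a size that again depends on the near-empty WT group. Ms4a4a, at 0 in WT at both ages, could not be estimated in this test of the change in genotype difference. Of the other 5 genes only Ms4a7 passed with edgeR (DESeq2 called 3 genes), as did 9.25% of all genes, 5.98% with the difference higher. No member passed between 4 months and 3 weeks (3 of 6 at an unadjusted p under 0.05, none with DESeq2, 2.52% of all genes). Between 8 and 4 months edgeR called none of the 6, with 1 at an unadjusted p under 0.05 and 1 called by DESeq2, beside 0.391% of all genes. For Ms4a7 the adjusted p was 0.127 and 0.482 in those comparisons.

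Ms4a7 changed with age in both genotypes, in opposite directions. Within SgshKO it rose from 3 weeks to 8 months (log2 fold change 2.49 ± 0.56, adjusted p = 0.00151, edgeR). Within WT it fell (adjusted p = 0.0106), with a pooled ratio of 0.0314 (0.000762 to 0.193). The fall in WT rested on 23 counts at 3 weeks and 1 at 8 months, and without the WT library of 3 weeks with 16 counts, replicate 3, the adjusted p was 0.128 (range over 16 alternatives 0.00293 to 0.300). Over these ages 5 of the 6 tested genes passed within SgshKO, 4 higher and 1 lower, beside 30.6% of all genes, 15.5% higher and 15.1% lower. Ms4a4a, among the 4 higher, was tested only through its counts in SgshKO at 8 months. Within WT, where Ms4a4a was at 0 at both ages, 2 of the other 5 passed, 1 higher and 1 lower, beside 7.65% of all genes, 3.02% higher and 4.63% lower.

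Ms4a4a was close to absent outside SgshKO at 8 months. Its counts summed to 0 in WT at 3 weeks, 4 in SgshKO at 3 weeks, 3 in WT at 4 months, and 0 in SgshKO at 4 months and in WT at 8 months. In the 7 SgshKO libraries of 8 months it was counted 33, 25, 31, 28, 22, 3 and 17 times, from 0.141 to 1.93 CPM with a median of 1.24. Each of these libraries was above each WT library of that age, where 25.2% of all tested genes did not overlap. Replicate 6, with 3 counts, lay at the floor, so it cannot be told from WT. The others held 1.17 to 1.93 CPM. Set against a floor of 3 counts over the WT group of 8 months, the pooled SgshKO level was 27.0-fold higher. The counting interval on the ratio to the 0 WT counts had a lower limit of 21.7 and no upper limit. The rise passed (adjusted p = 0.000481, edgeR). It passed in all 17 alternatives that tested it, with adjusted p from 4.40e-06 to 0.00211. In the main fit Ms4a4a was tested only through these SgshKO libraries of 8 months, so its calls are not independent of that filter. Within SgshKO the pooled ratio of 8 months to 3 weeks was 19.8 (7.59 to 73.6), and Ms4a4a rose (4.16 ± 1.09, adjusted p = 0.00722).

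**Figure D3:**
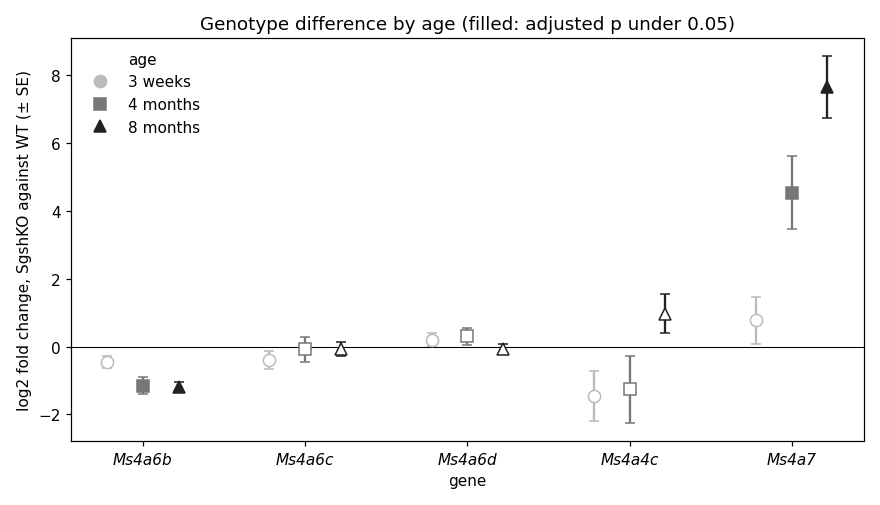
Log2 fold change of SgshKO against WT (y axis, with SE bars) for the 5 Ms4a genes with counts in every age and genotype, at 3 weeks (circles), 4 months (squares) and 8 months (triangles), filled where the adjusted p is under 0.05. Ms4a6b is below 0 at each age, Ms4a7 reaches 7.65 at 8 months against a WT group with 1 count, and Ms4a6c and Ms4a6d stay between -0.40 and 0.30.

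Markers of other cells moved with genotype too, and they stand here beside the Ms4a7 and Ms4a4a results. Of 11 tested markers of border macrophages, 8 rose in SgshKO at 8 months (median log2 fold change 1.82), 1 at 4 months and none at 3 weeks. Of all tested genes 21.6% rose at 8 months and 10.3% at 4 months. Mrc1, the mannose receptor of these macrophages, was at 64.0 CPM in WT at 3 weeks. It went from 19.7 ± 7.96 to 69.3 ± 15.7 CPM at 8 months (log2 fold change 1.82 ± 0.21, adjusted p = 1.55e-07, edgeR). Cd163, a scavenger receptor, went from 0.109 to 1.33 CPM (adjusted p = 0.00523). Stab1, the most abundant of the list, was at 1520 ± 171 in WT and 1376 ± 284 in SgshKO and did not pass, Lyve1 and Cbr2 did not pass either, and Cd209f was at 0 in every library. With Stab1 in it, the summed level of the list overlapped, with WT libraries between 1351 and 1746 CPM and SgshKO libraries between 1185 and 1966.

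Neutrophil markers summed to 2.03 to 3.68 CPM in WT at 8 months and 434.6 to 5852 in SgshKO, with 10 of 10 higher. At 4 months the SgshKO libraries held 3021 and 14908 CPM of them, with 9 of 10 higher, and at 3 weeks 1.74 to 30.9, with none higher. At 8 months monocyte markers summed to 11.3 to 15.5 CPM in the WT libraries and 69.1 to 499 in the SgshKO ones, with 5 of 8 higher. At 4 months they summed to 21.4 to 26.2 CPM in WT and 376 to 1475 in SgshKO, with 3 of 8 higher. At 3 weeks the genotypes overlapped. Beside these counts, 10.3% of all tested genes were higher at 4 months and 21.6% at 8 months, and 9.03% were called at 3 weeks in either direction.

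Sums of other marker lists also differed by genotype. Endothelial markers summed to 52.4 to 66.0 CPM in WT and 26.7 to 31.5 in SgshKO at 3 weeks, 47.0 to 57.9 against 19.7 to 23.0 at 4 months, and 42.5 to 57.0 against 14.1 to 27.2 at 8 months, with no overlap. Of their 4 tested genes 1 fell at each age, and 2 rose at 8 months. T and NK cell markers summed to 6.93 to 10.2 CPM in WT and 1.42 to 2.05 in SgshKO at 3 weeks, overlapped at 4 months, and summed to 4.12 to 11.4 against 0 to 3.10 at 8 months, with 1 of 3 tested genes lower at each age. Astrocyte markers were higher in SgshKO at 3 weeks (153 to 164 against 191 to 262 CPM) and overlapped at 4 months and at 8 months (286 to 403 against 175 to 296), where 3 of 6 genes rose and 1 fell. B cell markers lay between 10.9 and 33.3 CPM and overlapped at each age. Neuronal markers were at or under 6.48 CPM in every library, with none of 3 called. Oligodendrocyte markers overlapped at each age, narrowly at 8 months (117.7 to 147.0 CPM in WT, 145.8 to 160.9 in SgshKO). Of their 5 tested genes 3 were higher in SgshKO at that age. Without the SgshKO libraries of 8 months above 1000 CPM of neutrophil markers, replicates 1 and 3, Ms4a7 (adjusted p = 2.26e-06), Ms4a4a (0.00169) and Ms4a6b (4.20e-06) kept their calls at 8 months. The 5 SgshKO libraries that remain hold at least 434.6 CPM of those markers, against at most 3.68 in WT, so this does not remove the genotype difference in neutrophil RNA. Markers of disease-associated microglia moved as well, with each SgshKO library above all WT libraries of its age. Listed by rising age, their highest WT sums were 689, 586 and 505 CPM and their lowest SgshKO sums 1151, 2742 and 2657. Of these 12 genes, 8 were called higher and 1 lower at 3 weeks, and 12 higher at each later age. Beside the counts of all these lists, 9.03% of all tested genes were called at 3 weeks in either direction. At 4 months 10.3% were higher and 9.26% lower, and at 8 months 21.6% were higher and 18.9% lower. The part of disease-associated microglia, border macrophage, monocyte and neutrophil RNA in the Ms4a7 and Ms4a4a results was not tested.

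**Figure D4:**
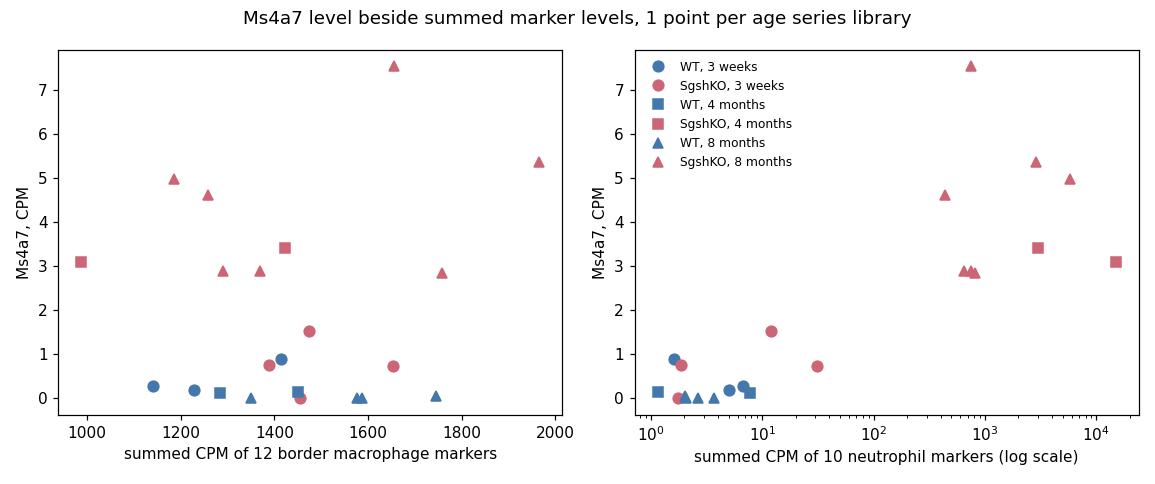
Ms4a7 level (y axis, CPM) in each of the 22 age series libraries beside the summed CPM of 12 border macrophage markers (left) and of 10 neutrophil markers (right, log scale). The highest Ms4a7 library, at 7.55 CPM, holds 750.2 CPM of neutrophil markers, and the library with 14908 CPM of them holds 3.10 CPM of Ms4a7.

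Of the genes known from blood cells, Ms4a4c was at 0.982, 0.782 and 0.670 CPM in WT and 0.428, 0.475, 0.0968 and 0.0731 in SgshKO at 3 weeks. The SgshKO libraries were all lower, where 22.5% of all tested genes did not overlap, but the difference did not pass (log2 fold change -1.46 ± 0.74, adjusted p = 0.296, edgeR). At 8 months it was at 1.25, 1.02, 1.09 and 1.95 CPM in WT, and at 1.18, 2.69 and 4.02 (lowest, median, highest) in SgshKO, with overlap (0.97 ± 0.57, adjusted p = 0.190). Within SgshKO it rose between these ages by 3.12 ± 0.67 (adjusted p = 0.000894). At 4 months it was at 1.77 and 1.29 CPM in WT and at 1.35 and 0 CPM in SgshKO. This difference was not called (log2 fold change -1.26, adjusted p = 0.416, edgeR). Without the SgshKO library at 1.35 CPM, replicate 1, the log2 fold change was -7.66, a size that rests on the single SgshKO library left, at 0. Interferon-response genes, a set in which Ms4a4c is often read, were higher in SgshKO at 8 months for 12 of 12 tested (median log2 fold change 1.64), for 4 at 4 months and 1 at 3 weeks. Of all tested genes 21.6% were higher at 8 months and 10.3% at 4 months.

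Ms4a4b, the T cell gene, was at most 0.693 CPM. Its counts summed to 3 in the 4 WT libraries and 18 in the 7 SgshKO libraries of 8 months, of which replicates 2 and 3 held all. The pooled ratio was 3.06 (0.892 to 16.2), an interval that spans 1, so no difference was detectable at this depth.

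Among the other genes of the family, 12 of 15 listed were in the age table and 3 were tested, Tmem176a, Tmem176b and Ms4a3. Tmem176a and Tmem176b encode related channel-like proteins of myeloid cells. Tmem176b was at 325.7 ± 17.0 CPM in WT and 134.6 ± 18.1 in SgshKO at 3 weeks (log2 fold change -1.28 ± 0.18, adjusted p = 2.49e-05, edgeR), and at 253.3 ± 31.5 and 47.6 ± 12.9 at 8 months (-2.41 ± 0.15, adjusted p = 2.91e-12). The fall was larger at 8 months than at 3 weeks by -1.14 (adjusted p = 0.00274). Tmem176a fell likewise, from 110.3 to 40.5 CPM at 3 weeks (-1.45, adjusted p = 3.92e-05) and from 85.3 to 16.3 at 8 months (-2.40, adjusted p = 6.82e-11). For both genes the genotypes did not overlap at any of the 3 ages. Of all tested genes 22.5% did not overlap at 3 weeks, 58.1% at 4 months and 25.2% at 8 months.

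Ms4a3, a gene of neutrophil precursors, was counted 0, 0, 0 and 1 times in WT at 8 months and 117, 8, 105, 3, 0, 0 and 6 times in SgshKO (adjusted p = 0.00879, edgeR). The libraries with 117 and 105 counts were replicates 1 and 3, which also held the most neutrophil marker RNA of that group. The SgshKO libraries of 4 months held 11 and 219 counts. Ms4a1, the CD20 gene of B cells, had 18 counts over the whole age series.

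Over the 22 age series libraries, the genes whose log2 CPM followed a member most closely are given as a description, among 12133 genes. These libraries differ in genotype, age and depth, and r takes in those differences. The closest genes were Chsy1 (Pearson r = 0.963), Hfe (0.958) and Sla (0.949) for Ms4a6b, and Gfap (0.939), C2 (0.929) and Gng12 (0.927) for Ms4a7. For Ms4a6d they were Fcgr3 (0.862), Dram2 (0.858) and Comp (0.844), and for Ms4a6c Ntpcr (0.860), Apobec1 (0.851) and Spint1 (0.820). Ms4a4a was closest to Gng5 (0.857), Qars (0.853) and Slc8b1 (0.841), and Ms4a4c to Trim12a (0.883), 9630028I04Rik (0.850) and Ddx58 (0.774). Between members, r was -0.83 for Ms4a6b with Ms4a7, 0.67 for Ms4a7 with Ms4a4a, and 0.76 for Ms4a6c with each of Ms4a6d and Ms4a4c. Gfap, an astrocyte gene, itself went from 0.0763 to 2.63 CPM at 8 months (log2 fold change 4.83, adjusted p = 4.53e-05).

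Of 16 genes of the Trem2 pathway, the microglial lipid receptor and its signalling partners, 5 rose and 8 fell in SgshKO at 8 months, with a median log2 fold change of -0.04 beside 0.02 over all genes. Apoe, a Trem2 ligand, rose by 4.11 (adjusted p = 1.59e-12, edgeR), Tyrobp, its signalling adaptor, by 1.52 (adjusted p = 2.16e-10) and Trem2 by 0.77 (adjusted p = 7.23e-05). Dok3, an adaptor that limits such signals, fell by 1.11 (adjusted p = 1.80e-08). At 3 weeks 3 of the 16 rose and 1 fell, and at 4 months 2 rose and 5 fell. Of all tested genes, 9.03% were called at 3 weeks, 10.3% rose and 9.26% fell at 4 months, and 21.6% rose and 18.9% fell at 8 months.

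The Mitf, Tfeb and Tfe3 ASOs were compared with the ntc ASO in WT microglia, to read the members where the RNA of each factor was lowered. The 3 comparisons share the 4 ntc libraries, and each library carries a group number that pairs it across treatments. Ms4a6b was at 107.8, 113.5, 99.0 and 117.8 CPM with the ntc ASO in groups 1 to 4, and at 91.6, 89.2, 93.9 and 90.0 with the Mitf ASO. All 4 Mitf ASO libraries were below all 4 ntc libraries, as for 7.67% of genes in either direction. Ms4a6b fell by 0.26 ± 0.07 on the log2 scale (adjusted p = 0.0237, edgeR with the number as a block), the 1 called gene of 3 listed, beside 11% of 10277 genes, 5.21% lower. Without the block the adjusted p was 0.0910, and it was above the threshold without any 1 of 6 of the 8 libraries (range over 14 alternatives 0.0101 to 0.0990).

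With the Tfeb ASO Ms4a6b was at 98.5, 103.9, 101.1 and 101.8 CPM, within the range of the ntc libraries (log2 fold change -0.11, adjusted p = 0.481). With the Tfe3 ASO it was at 111.3, 108.6, 106.0 and 112.8 (0.00, adjusted p = 0.992). Set directly against the Tfe3 ASO, the Mitf ASO left Ms4a6b lower by -0.27 ± 0.07 (adjusted p = 0.0441, edgeR), 1 of 3 genes beside 3.76% of all genes, 1.13% lower, a call lost without any 1 of the 8 libraries (range over 14 alternatives 0.0134 to 0.172). Against the Tfeb ASO the difference was -0.15 (adjusted p = 0.281), 0 of 3 called and 0 at an unadjusted p under 0.05, beside 3.53% of all genes. Between the Tfe3 and Tfeb ASOs 0 of 3 genes were called, with 1 at an unadjusted p under 0.05 and none by DESeq2, beside 1.62%.

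Ms4a6c and Ms4a6d were not called with any single ASO. Ms4a6c was at 31.1, 33.5, 33.1 and 32.2 CPM with the ntc ASO and at 39.8, 35.8, 31.7 and 42.0 with the Tfe3 ASO, with overlap (0.20 ± 0.09, adjusted p = 0.281). With the Mitf ASO it was at 30.7, 34.8, 30.3 and 29.2 (-0.05, adjusted p = 0.770). Ms4a6d was at 121.6, 122.4, 93.7 and 120.6 CPM with the ntc ASO and at 130.7, 121.3, 99.9 and 102.7 with the Mitf ASO (-0.01, adjusted p = 0.933). It was at 118.4, 112.2, 105.9 and 109.3 with the Tfeb ASO (-0.03, adjusted p = 0.823) and at 118.6, 123.0, 98.5 and 112.8 with the Tfe3 ASO (-0.02, adjusted p = 0.926). In each treatment the library of group 3 was the lowest. With the Tfeb ASO 0 of 3 genes were called, also at an unadjusted p under 0.05, beside 0.778% of all genes, and with the Tfe3 ASO 0 of 3, with 1 at an unadjusted p under 0.05, beside 2.16%. DESeq2 called none of the 3 with either.

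The ntc ASO itself did not separate the members from saline. Ms4a6b was at 88.2, 112.3, 122.4 and 113.4 CPM with PBS, Ms4a6c averaged 33.6 and Ms4a6d 107.7. edgeR called 0 of 3 genes and 0% of all (0 of the 3 at an unadjusted p under 0.05, and 415 genes of all), and DESeq2 called 2 genes, neither of them a member. The log2 fold changes of ntc against PBS were 0.01, -0.05 and 0.09 for Ms4a6b, Ms4a6c and Ms4a6d.

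In SgshKO microglia the combo was set against the ntc ASO, in 2 numbered groups that each held 4 libraries of each treatment. Ms4a6b was at 48.2, 48.0, 51.9 and 44.4 CPM with the ntc ASO in group 1 and at 42.7, 37.7, 39.4 and 36.3 in group 2. With the combo it was at 54.0, 55.4, 53.0 and 47.8 in group 1 and at 45.2, 52.4, 48.9 and 52.0 in group 2. Across groups the treatments overlapped, but above every ntc library of the same group lay 3 of 4 combo libraries in group 1 and 4 of 4 in group 2.

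Ms4a6b rose by 0.24 ± 0.06 with the combo (adjusted p = 0.0144, edgeR with group as a term), the 1 called gene of 3, beside 9.33% of 10589 genes, 4.84% higher. Within group 1 the log2 fold change was 0.14 (adjusted p = 0.296) and within group 2 it was 0.33 (adjusted p = 0.0229), and without the group term the adjusted p was 0.0839 (range over 25 alternatives 0.00197 to 0.296). Ms4a6c averaged 21.1 ± 1.72 CPM (SD, n = 8) with the ntc ASO and 24.3 ± 2.54 with the combo, with overlap (0.21 ± 0.07, adjusted p = 0.0707). Ms4a6d was at 109.6 ± 13.4 and 107.8 ± 7.73 CPM (-0.02, adjusted p = 0.870). The Mitf ASO in WT went with lower Ms4a6b and the combo in SgshKO with higher Ms4a6b, in separate experiments whose difference was not tested.

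**Figure D5:**
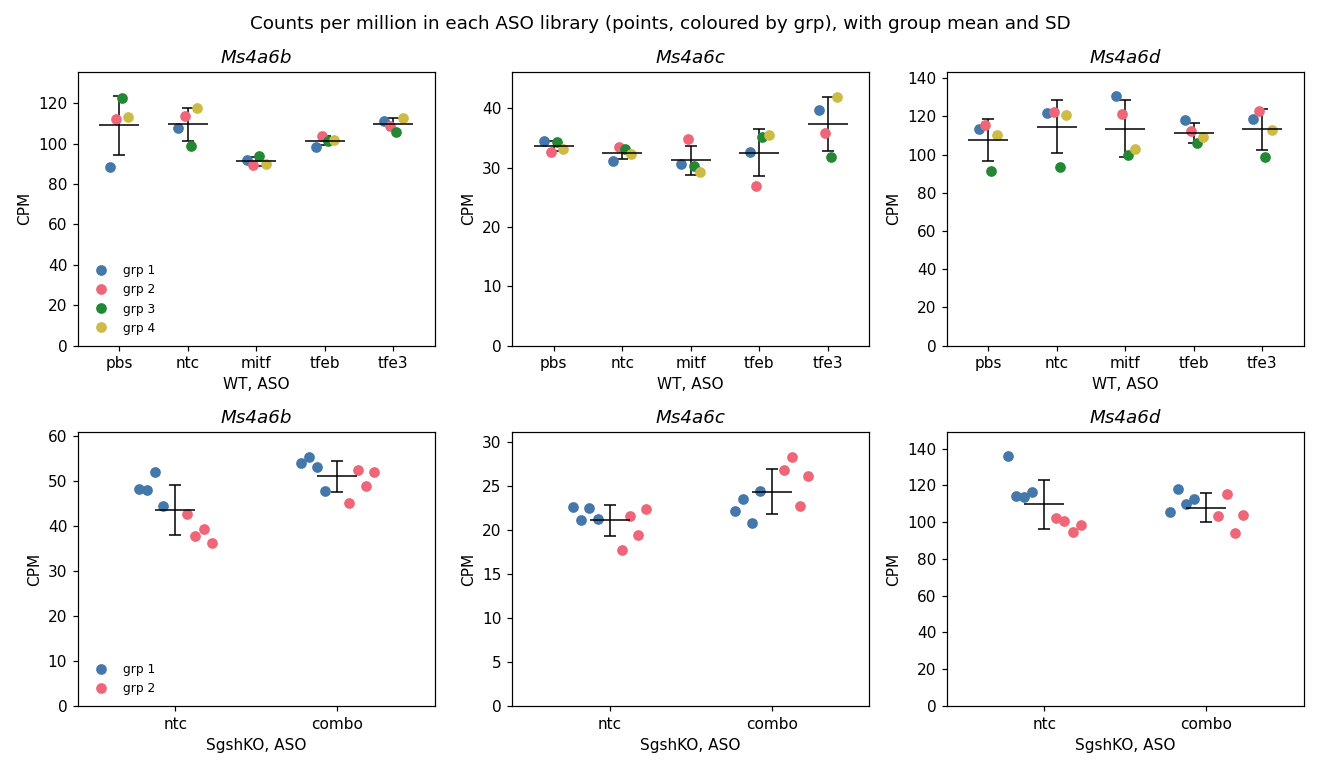
Level in CPM (y axis) of Ms4a6b, Ms4a6c and Ms4a6d in each ASO library, by treatment (x axis), with the group mean and SD, in WT and in SgshKO microglia. The 4 Mitf ASO libraries lie between 89.2 and 93.9 CPM for Ms4a6b, under all 4 ntc libraries, and the SgshKO combo and ntc libraries overlap.

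The relatives Tmem176a and Tmem176b were listed in the ASO tables as well. Tmem176b fell with the Mitf ASO in WT, from 416 to 327 CPM (log2 fold change -0.34 ± 0.07, adjusted p = 0.00270, edgeR), and the value for Tmem176a was -0.18 (adjusted p = 0.105). With the combo in SgshKO, Tmem176a rose from 18.3 to 27.3 CPM (0.58 ± 0.08, adjusted p = 0.000285) and Tmem176b from 60.2 to 72.5 (0.27, adjusted p = 0.0330). Disease-associated microglia genes, 12 of 12 higher in SgshKO at 8 months (21.6% of all genes), were lower with the combo for 10 of 12. Of all genes 9.33% were called with the combo in either direction, 4.84% higher. Of the Trem2 pathway genes, 2 rose and 1 fell of 15 with the Mitf ASO, beside 11% of all genes called in either direction. Trem2 went from 489 to 598 CPM (adjusted p = 0.00274, edgeR). With the combo 1 of 16 rose, Tyrobp by 0.28 (adjusted p = 0.00615, edgeR), beside the 4.84% of all genes higher.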

How the data were processed

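RNA-seq of sorted mouse microglia was measured in 58 libraries of 13 groups. The authors deposited raw read counts per gene for the age series, the WT ASO and the SgshKO ASO experiments. They also deposited TPM per gene for the age series and a normalised, batch-corrected signal per gene for the ASO experiments, whose method is not given in the sources used here. The submitters' processing notes name STAR 2.5.3a, kallisto 0.44.0, HOMER 4.11, DESeq2 1.36.0 and the build mm10, with no role or order, and per the labels' protocols the libraries were stranded and single-end.

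From the counts, edgeR 4.0.16 (TMM scaling, quasi-likelihood test, Benjamini-Hochberg adjustment over all genes tested, threshold 0.05) was fitted to each table, with R 4.3.3. The age table was filtered at a minimum count of 10, which left 14309 of 24940 genes. The ASO tables listed 10277 and 10589 genes, all of which were tested. CPM values use library totals times the TMM factor. Numbered WT ASO groups entered as a block, since same-numbered libraries deviated together (r from 0.122 to 0.640 over 28 pairs), and the numbered group of the SgshKO ASO libraries entered as a term. One PBS column is numbered 3 where its title has 4, and the title was used. Age series replicate numbers did not pair libraries (r from -0.171 to 0.115 over 9 pairs). Pooled ratios carry 95% exact counting intervals, and a group at 0 was set to a floor of 3 counts. The scripts were tested on simulated data. Alternatives were RLE scaling, DESeq2 1.42.0, other filters, TPM and the batch-corrected signal on a log2 scale in limma 3.58.1 (pseudocounts 1 and 0.1), the block, and each library left out. The alternatives that leave out WT replicate 4 with SgshKO replicate 2, or the SgshKO libraries rich in neutrophil markers, were chosen after seeing the data. Genes were named by a rule: the 7 members, their relatives, the targeted genes, the strongest called or most abundant genes of each list, and the 3 genes most like each member. Trem2, Cd163, Lyve1, Cbr2 and Cd209f were named after their values were seen. The members and lists were chosen with earlier results of these data known.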

Additional observations from a re-analysis of the deposited data

Results flagged for a closer look

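In 40 sets of 4 to 10 libraries of one member in one group, 7 had a library far from the others by Dixon's criterion, where chance gives about 1 in 20. Among the SgshKO libraries of 8 months, replicate 2 stood apart for 3 genes: Ms4a6b at 55.6 CPM (the others 25.6 to 35.5), Ms4a6c at 65.6 (23.2 to 30.7) and Ms4a6d at 128.5 (70.8 to 90.7). In the WT libraries of 8 months, replicate 4 held 144.1 CPM of Ms4a6d, where the others held 71.5 to 79.5. Each of these 2 libraries had the lowest correlation with the rest of its own group among the libraries of that group. SgshKO replicate 6 of 8 months held 0.141 CPM of Ms4a4a, where the others held 1.17 to 1.93. WT replicate 3 of 8 months stood apart for Ms4a7 at 0.0472 CPM through a single read, with 0 in the other 3. In the WT ASO experiment, the ntc library of group 3 held 93.7 CPM of Ms4a6d, below the 120.6 to 122.4 of the others.

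One member's genotype difference differed between ages by a test: that of Ms4a7 was larger at 8 months than at 3 weeks by 6.88 on the log2 scale (adjusted p = 0.000379, edgeR).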

How the results depend on the processing

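The calls of Ms4a6b, Ms4a7 and Ms4a4a at 8 months were kept under every alternative that tested them. Ms4a4a was too low to be tested with TPM or at a minimum count of 50. It entered the main test only through its counts in SgshKO at 8 months, the group that the call is about. Depth limits the low members: below about 3 counts per group no level can be told from 0.

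The age series numbers do not pair libraries, and a replicate block there gave 21 genes for the change of the genotype difference between 8 and 4 months (56 without it), 1 member called in WT between 3 weeks and 8 months (2 without it), and 8-month log2 fold changes of 0.0558 for Ms4a6d and 0.0852 for Ms4a6c, reversed in sign. Ms4a6b within SgshKO lost its call under that block (adjusted p = 0.0734). In the WT ASO experiment, no replicate block left 211 genes called with the Mitf ASO (1128 with it), 9 with Tfeb (80), 29 with Tfe3 (222), 100 for Mitf against Tfe3 (386), 33 for Mitf against Tfeb (363) and 7 for Tfe3 against Tfeb (167), 0 members with Mitf and 0 for Mitf against Tfe3 (1 each with it), and Ms4a6c with Tfeb at 0.0017.

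For the change of the genotype difference, DESeq2 called 685 genes between 4 months and 3 weeks (361 with edgeR) and 163 between 8 and 4 months (56), where no filter gave 131 and leaving out WT replicate 4 and SgshKO replicate 2 gave 89. Members called for 8 months against 3 weeks (1) were 3 with DESeq2, and 2 with no filter, with a minimum count of 50, with TPM at pseudocount 1 and without those 2 libraries. They were 1 for 8 against 4 months with DESeq2 (0) and 1 for 4 months against 3 weeks with TPM (0). In WT over age, TPM called 0 members at pseudocount 1 and 0 at 0.1. DESeq2 called 2 genes for ntc against PBS (0), 213 for Tfeb, 403 for Tfe3, 573 for Mitf against Tfeb and 408 for Tfe3 against Tfeb. Batch-corrected values called 0 members for Mitf against Tfe3, and gave 0.0847 for Ms4a6d with Mitf and -0.0585 for Ms4a6b with Tfe3. For the combo, 988 genes became 452 with no group term, 192 in group 1 alone and 430 in group 2 alone, and members called (1) became 2 with DESeq2, 0 with no group term and 0 in group 1. Ms4a6d was 0.0581 in group 2 alone. At 8 months Ms4a6d was 0.10 without the 2 libraries above. The causes were not tested, except that splits and left-out libraries hold fewer samples.

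Leaving out each library in turn, genes called ran from 100 to 699 (genotype difference, 4 months against 3 weeks), 4 to 125 (8 against 4 months), 1441 to 2708 (4 months, 2794 in all), 664 to 1156 (WT over age), 621 to 970 (Mitf), 24 to 63 (Tfeb), 79 to 140 (Tfe3), 218 to 303 (Mitf against Tfe3), 118 to 458 (Mitf against Tfeb) and 48 to 568 (Tfe3 against Tfeb). Members called ran from 1 to 2 (8 months against 3 weeks), 0 to 1 (8 against 4 months), 1 to 3 (4 months), 0 to 2 (WT over age), 0 to 1 (Mitf) and 0 to 0 (Mitf against Tfe3). Log2 fold changes that changed sign ran from -0.0470 to 0.0191 for Ms4a6d with the combo, -0.64 to 0.27 for Ms4a6c at 4 months, -0.35 to 0.0785 for Ms4a6c and -0.22 to 0.18 for Ms4a6d at 8 months, -0.0477 to 0.0411 for Ms4a6d with Mitf, -0.0807 to 0.0824 for Ms4a6b with ntc, -0.0556 to 0.0315 for Ms4a6b and -0.0510 to 0.0230 for Ms4a6d with Tfe3, and -0.0561 to 0.0766 for Ms4a6c and -0.0839 to 0.00445 for Ms4a6d with Tfeb.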
